A study of Mus musculus with 22 samples.

Results

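The genes described here are the nuclear-encoded subunits of the mitochondrial respiratory chain, followed in the right ventricle (RV) and left ventricle (LV) of neonatal mice. They were chosen by name: protein-coding genes whose symbol begins with Nduf, Uqcr, Cox4 to Cox8 or Atp5, or is Sdha, Sdhb, Sdhc or Sdhd. The name rule matched 94 genes, of which 93 were in the tables and 91 had a mean of at least 10 normalized counts in each ventricle. Those 91 were tested among 13660 genes in the RV and 13528 in the LV. The other pair in the tables, Cox7b2 and Cox8c, fell under that minimum, and a second gene record named Atp5o was not in the tables.

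Neonatal pulmonary artery banding (nPAB) is a constriction of the vessel into which the RV ejects, so that this ventricle pumps against a higher pressure. CD1 mice, an outbred stock with no engineered allele named, were banded over a 30-gauge needle on postnatal day 1, or sham-operated, and hearts were taken 7 days later. The libraries were an RV and an LV library from each of 6 nPAB mice (numbered 5, 6, 7, 8, 10 and 11) and each of 5 Sham mice (numbered 9 to 13), all with batch label 1. Each library was bulk total RNA of ventricular tissue, so fewer cells of a type and less RNA per cell cannot be told apart.

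The chain passes electrons from NADH through complex I, or from succinate through complex II, to complex III and then by cytochrome c to complex IV, cytochrome c oxidase, where oxygen is reduced. The proton gradient this builds drives complex V, the ATP synthase. A few complex IV subunits come as pairs of genes, a broadly expressed isoform and one that takes over in heart and skeletal muscle as they mature (Cox6a1 and Cox6a2, Cox7a2 and Cox7a1, Cox8a and Cox8b), and the exchange runs through the weeks after birth in the mouse heart.

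Values below are normalized counts, that is, gene counts divided by a size factor per library, and the RV and LV tables were normalized separately. Whole reads recovered from them summed to between 7.11 and 11.3 M per library. Sdhb, the iron-sulfur subunit of complex II, and Cox6a2, the muscle isoform of a complex IV subunit, were strong in every library: the lowest values were 5482 normalized counts for Sdhb and 22808 for Cox6a2, both in RV Sham. Of 10 cardiomyocyte markers, which include these 2 members, none was at 0 throughout a group. Summed normalized counts of the other 8 were 535280 to 716020 in RV nPAB and 561860 to 679760 in RV Sham, and 593420 to 849590 in LV nPAB and 619090 to 716850 in LV Sham. The sums overlapped, but single markers moved both ways: the sarcomeric actin Actc1 rose in both ventricles (RV log2 fold change 0.47, adjusted p = 0.0023; LV log2 fold change 0.32, adjusted p = 0.032), and in the RV the SERCA regulator Pln (log2 fold change -0.64, adjusted p = 0.000185), Ryr2 (log2 fold change -0.32, adjusted p = 0.0451) and Tnni3 (log2 fold change -0.26, adjusted p = 0.0447) fell. Their part in the results below was not tested. The 13 mitochondrially encoded subunit genes were listed at 0 in every library and were not analysed here. By Xist and Y-linked genes, the RV and LV libraries labelled nPAB mouse 6 were of different sexes, as were those labelled nPAB mouse 7. The other 9 mice matched. Over autosomal genes and among LV libraries of the same group, the RV library of nPAB mouse 6 was most like the LV library of mouse 7, and the RV library of mouse 7 most like the LV library of mouse 8, while every other RV library was most like the LV library of its own number. Counts of calls are therefore also given without nPAB mice 6 and 7. Their effect on single genes is given where it ended a call.

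The start regions of the complex IV isoform genes are shown because the results turn on this family. Each is a RefSeq promoter window of GRCm38.p6, 250 bases before to 50 after the annotated start, printed 5′ to 3′ in the direction of transcription. Capitals mark matches on either strand to any of 6 motifs: NRF1 (GCGCA, any base, then GCGC), ETS (CCGGAAG), an ERR half-site (AAGGTCA), the E-box CAGCTG, MEF2 (CTA, any 4 bases, then TAG) and the GC box GGGCGG. The windows lie at chr5:115348909-115349208 on the minus strand (Cox6a1), chr19:7217567-7217866 on the minus strand (Cox8a), chr9:79759804-79760103 on the minus strand (Cox7a2), chr7:140900397-140900696 on the minus strand (Cox8b) and chr7:30183921-30184220 on the plus strand (Cox7a1).
Cox6a1: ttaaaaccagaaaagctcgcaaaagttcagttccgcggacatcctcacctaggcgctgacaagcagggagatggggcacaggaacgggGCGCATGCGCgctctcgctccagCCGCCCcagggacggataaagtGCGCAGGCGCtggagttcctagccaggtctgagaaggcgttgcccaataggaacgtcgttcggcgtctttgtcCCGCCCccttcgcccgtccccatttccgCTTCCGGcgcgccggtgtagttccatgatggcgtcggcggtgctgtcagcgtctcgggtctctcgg
Cox8a: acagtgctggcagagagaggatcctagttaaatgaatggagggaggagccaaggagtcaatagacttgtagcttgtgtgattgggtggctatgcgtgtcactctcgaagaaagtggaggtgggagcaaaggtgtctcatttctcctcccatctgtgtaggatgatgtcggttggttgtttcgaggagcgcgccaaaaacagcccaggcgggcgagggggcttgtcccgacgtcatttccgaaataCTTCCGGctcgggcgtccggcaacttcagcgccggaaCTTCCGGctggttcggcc
Cox7a2: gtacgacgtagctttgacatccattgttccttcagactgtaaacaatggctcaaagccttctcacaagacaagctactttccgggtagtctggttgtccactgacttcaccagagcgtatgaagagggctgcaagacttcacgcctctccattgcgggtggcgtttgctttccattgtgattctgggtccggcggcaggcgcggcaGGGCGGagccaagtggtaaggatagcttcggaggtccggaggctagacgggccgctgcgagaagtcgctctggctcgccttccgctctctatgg
Cox8b: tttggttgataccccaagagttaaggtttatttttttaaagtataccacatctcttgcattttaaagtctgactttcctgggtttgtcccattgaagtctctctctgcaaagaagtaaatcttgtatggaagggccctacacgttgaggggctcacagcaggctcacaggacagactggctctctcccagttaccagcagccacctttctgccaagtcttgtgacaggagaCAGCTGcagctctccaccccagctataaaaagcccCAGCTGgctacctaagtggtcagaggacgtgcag
Cox7a1: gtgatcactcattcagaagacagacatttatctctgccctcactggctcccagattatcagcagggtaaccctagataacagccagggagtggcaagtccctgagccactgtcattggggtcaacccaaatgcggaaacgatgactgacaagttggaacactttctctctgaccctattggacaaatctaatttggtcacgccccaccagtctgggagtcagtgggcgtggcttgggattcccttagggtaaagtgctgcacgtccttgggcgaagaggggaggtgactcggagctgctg
The windows of the broadly expressed isoforms held ETS, NRF1 or GC-box letters. In Cox6a1 there were 3 NRF1 matches, of which 2 read the same palindromic site on both strands, 1 ETS match and 2 GC boxes. Cox8a had 2 ETS matches, and Cox7a2 had 1 GC box. The Cox8b window held 2 E-box matches and no other motif, and the Cox7a1 window held none of the 6. Over the 78 windows of the 73 members that had one, NRF1 letters stood in 25.6%, against 4.6% of all 32851 windows. ETS letters stood in 23.1% against 8.86%, ERR half-sites in 10.3% against 4.72% and GC boxes in 42.3% against 35.7%. E-box letters were in 7.69% against 16.3%, and MEF2 letters in 2.56% against 3.69%. These are letter matches only. Cox6a2 had no window in the table.

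Banding left most respiratory chain genes uncalled in either ventricle, and the 18 calls fell on 14 genes over all 5 complexes. In the RV, 9 of 91 were higher in nPAB and 2 lower at an adjusted p under 0.05, by limma with Benjamini-Hochberg adjustment over all genes tested. That is 12.1% of the members, against 22.0% of all genes called in either direction (11.1% higher and 10.8% lower); that difference in shares was not tested. In the LV, 7 were higher and none lower, 7.69% against a background of 9.31% (4.76% higher and 4.55% lower). At an unadjusted limma p under 0.05, 19 of 91 members were higher and 3 lower in the RV, where 33.8% of all genes differed either way. By the same measure, 24 of 91 members were higher and 0 lower in the LV, where 24.6% of all genes differed either way, and edgeR and DESeq2 called no member lower there. The 4 genes called higher in both ventricles were Cox6a1, Cox8a, Sdhb and Ndufa11.

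Most sizes were small. Complex IV as a whole had a median log2 fold change of 0.10 in each ventricle. Medians of complex I were 0.11 in the RV and 0.12 in the LV, and those of complex III 0.12 and 0.14. Those of complex II were -0.0098 and 0.04, and those of complex V 0.06 and 0.11. The median log2 fold change over the 91 members was 0.09 in the RV, against 0.0001 over all genes tested, and 66 of 91 were above 0, against 6831 of 13660 genes in all. In the LV the median was 0.12, against -0.0077 over all genes, and 74 of 91 were above 0, against 6625 of 13528. Another scaling moved all genes alike. With each library scaled to its total, the median of all genes was -0.09 in the RV and -0.07 in the LV. The members' median stayed 0.0927 above it for the RV (0.0929 on the deposited scale) and 0.125 above it for the LV (0.126). The members' own median was then 0.0003 in the RV, with 46 of 91 above 0, and 0.06 in the LV, with 65 of 91 above 0. On that scale 3 members were called higher and 7 lower in the RV, beside 1088 genes higher and 2154 lower among all genes. The members' summed share of all reads was 7.08% ± 0.560 in RV nPAB and 7.12% ± 0.156 in RV Sham, and 7.56% ± 0.472 in LV nPAB and 7.34% ± 0.100 in LV Sham (SD, n = 6 nPAB and 5 Sham).

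**Figure D1:**
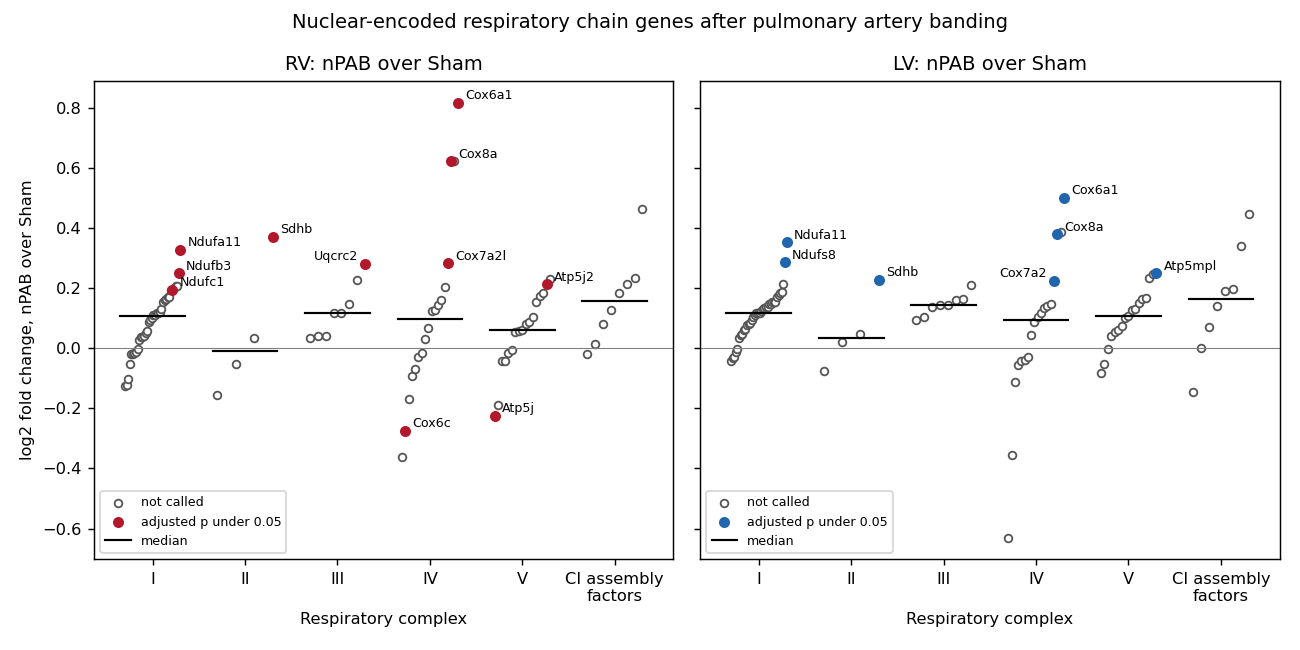
Log2 fold change, nPAB over Sham, of each of the 91 tested members in the RV (left) and LV (right), sorted within each complex on the x axis. Filled points passed an adjusted p of 0.05 in limma, open points did not, and black lines are medians; Cox6a1 and Cox8a stand highest among the filled points in both panels.

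The members' levels differed from mouse to mouse. For each library, the median over the members of the log2 deviation from the Sham mean of its ventricle was taken. In the RV it was 0.17, -0.17, 0.02, 0.03, 0.23 and 0.21 in nPAB mice 5, 6, 7, 8, 10 and 11, against 0.03, 0.01, -0.05, 0.05 and -0.02 in the Sham mice. The RV library of nPAB mouse 6 stood below every Sham library: 17 of its 91 members were above the Sham mean. In the LV the medians were 0.18, -0.05, 0.10, 0.04, 0.13 and 0.28 in nPAB and -0.02, -0.01, 0.02, -0.03 and 0.03 in Sham. The LV library labelled nPAB mouse 6 was lowest. The RV and LV libraries of that number differed in sex, so their low values cannot be taken as a repeat within the same animal. Over all genes tested, no library's median left the range -0.0027 to 0.0198. Without mouse 6 the RV count of members was 19 higher and 0 lower, 20.9% against 20.0% of all genes called in that fit. The LV count was 11 higher, 12.1% against 8.06%. Without mice 6 and 7 it was 22 higher and 0 lower in the RV, 24.2% against 20.4% of all genes, with 80 of 91 above 0. In the LV it was 8 higher, 8.79% against 4.93%. With the mouse as a replicate block over all 22 libraries, the RV count was 14 higher and 3 lower, 18.7% against 23.4%. Leaving out Sham mouse 10, 11 or 13, or nPAB mouse 8, 10 or 11, took the RV count to 3 or 4 higher, where 18.4% to 20.2% of all genes were called. Leaving out Sham mouse 10, 11 or 12 took the LV count to 3 or 4, with 6.21% to 7.01% of all genes called. The differences in these shares were not tested.

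**Figure D2:**
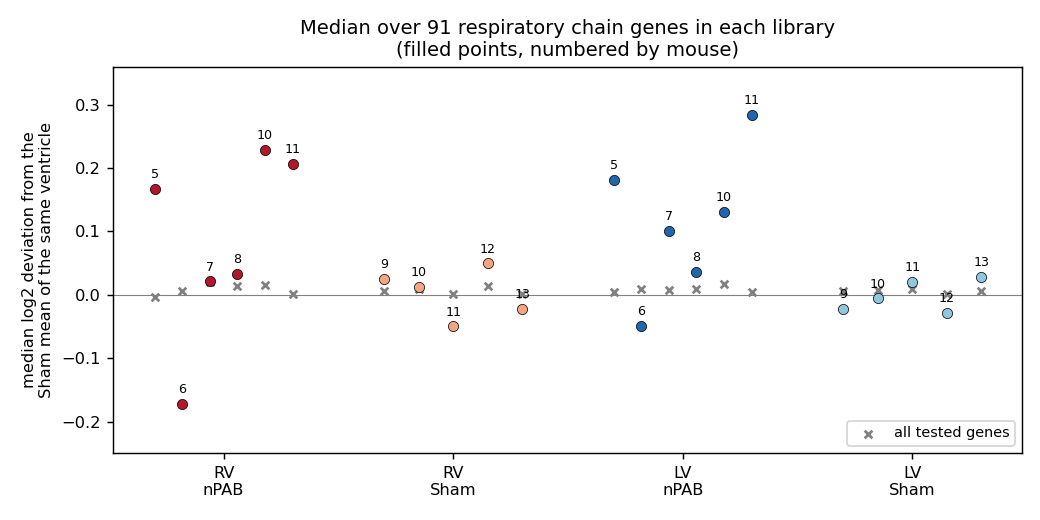
Median log2 deviation of the 91 members from the Sham mean of the same ventricle, 1 filled point per library, numbered by mouse, with crosses for all tested genes. In the RV 3 of 6 nPAB libraries lie above every Sham library, in the LV 5 of 6, and the RV library of nPAB mouse 6 lies lowest of all at -0.17.

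Complex IV held the largest called fold changes. Of its 18 tested genes, 3 were higher and 1 lower in the RV (22.2%, against 22.0% of all genes called). In the LV 3 were higher (16.7% against 9.31%). Differences in share between a complex and all genes were not tested. Cox6a1, the broadly expressed isoform of subunit VIa (chr5:115345642-115348981), had 11658 to 17999 (median 14369) normalized counts in RV nPAB, against 7676, 8347, 8574, 8313 and 8830 in RV Sham. Every nPAB library was above every Sham library, 1.76-fold on average (log2 fold change 0.82, SE 0.0952, adjusted p = 1.19e-05). Its LV values were 9988 to 14057 (median 12733) in nPAB and 7639, 8264, 8880, 8899 and 9747 in Sham. Those groups did not overlap either, and Cox6a1 rose 1.41-fold (log2 fold change 0.50, SE 0.0885, adjusted p = 0.0016). Non-overlap with nPAB higher was seen in 4 of 91 members in the RV, against 6.84% of all genes, and in 6 of 91 in the LV, against 3.38%.

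Cox8a, the broadly expressed isoform of subunit VIII (chr19:7215153-7217616), did likewise. It had 4628 to 6272 (median 5607) normalized counts in RV nPAB and 3473, 3669, 3666, 3580 and 3602 in RV Sham, 1.54-fold higher with no overlap (log2 fold change 0.62, SE 0.0759, adjusted p = 1.81e-05). In the LV it had 4497 to 5488 (median 5011) in nPAB and 3552, 3480, 4268, 4102 and 4103 in Sham, again with no overlap (log2 fold change 0.38, SE 0.0747, adjusted p = 0.00373). The Cox6a1 and Cox8a calls in both ventricles held under every alternative tried, including each mouse left out. Of all members they were the pair that kept their calls with a plain variance model. That model called 18.6% of all genes in the RV and 5.46% in the LV.

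Cox7a2, the broadly expressed isoform of subunit VIIa (chr9:79755361-79759878), differed less. It had 7110 to 9226 (median 8583) normalized counts in RV nPAB and 6788, 6973, 7483, 7593 and 7505 in RV Sham. The groups overlapped and the difference did not pass (log2 fold change 0.20, SE 0.0784, adjusted p = 0.0703). LV values of Cox7a2 were 7569 to 9526 (median 8449) in nPAB and 7204, 6879, 7437, 7443 and 7752 in Sham, overlapping at the low end, and passed narrowly (log2 fold change 0.23, SE 0.0698, adjusted p = 0.0491). That call was lost in 13 of 22 alternatives, among them each Sham mouse left out and edgeR (adjusted p = 0.0529).

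The muscle isoforms did not pass the test in either ventricle. Cox6a2 (chr7:128205435-128206387) had 23908 to 29228 (median 28459) normalized counts in RV nPAB and 26278, 26322, 23933, 27949 and 22808 in RV Sham (log2 fold change 0.13, SE 0.075, adjusted p = 0.246). Cox6a2 in the LV had 26209 to 36153 (median 30994) in nPAB and 27829, 28575, 29220, 28958 and 27641 in Sham (log2 fold change 0.10, SE 0.0733, adjusted p = 0.41). The groups overlapped in both ventricles. For Cox8b (chr7:140898945-140900446) the log2 fold change was -0.07 in the RV (SE 0.0827) and -0.06 in the LV (SE 0.0735). For Cox7a1 (chr7:30184144-30186078) it was -0.09 (SE 0.11) and -0.11 (SE 0.0603). The adjusted p of these 4 tests ran from 0.254 to 0.685, which does not show that the levels were equal. Cox6a2 shares 70 bases of exon with Itgad on the other strand, and reads there cannot be told apart unless counting used strand, which is not given in the sources used here.

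**Figure D3:**
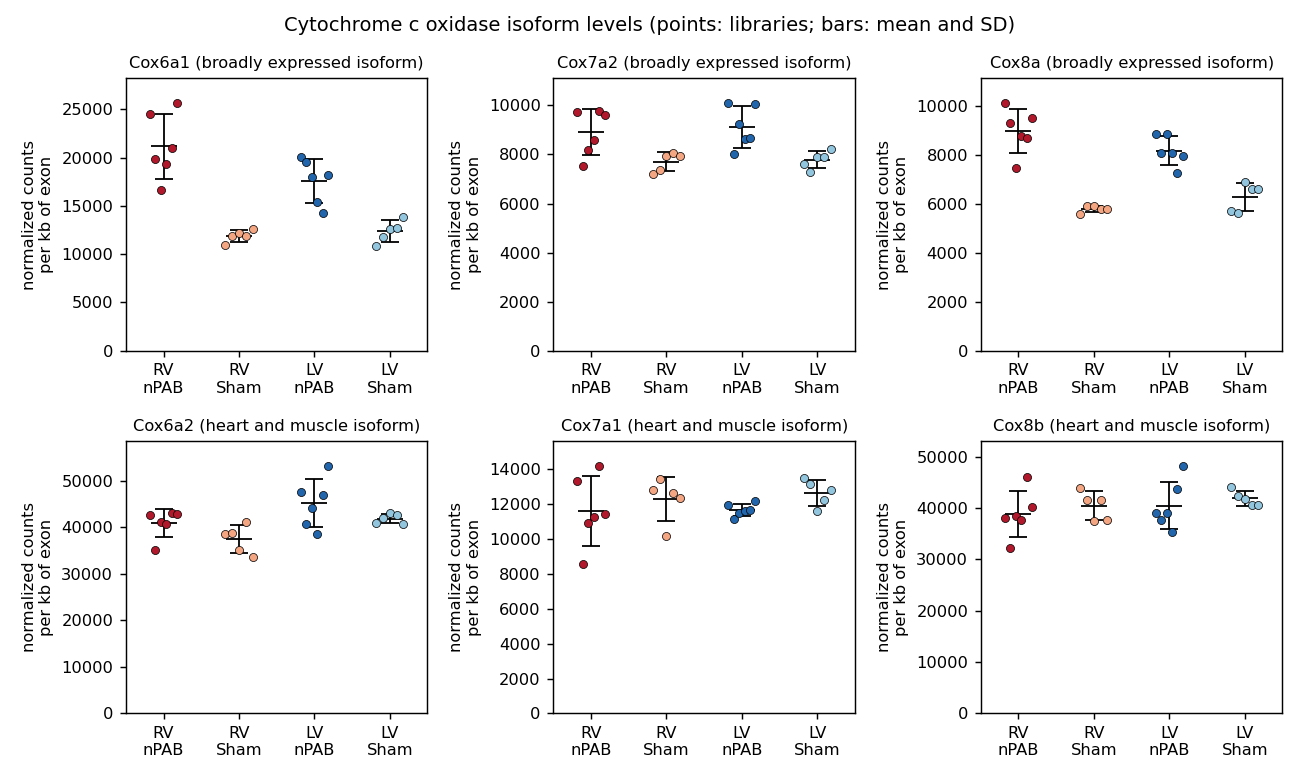
Level of 3 complex IV isoform pairs in normalized counts per kb of exon, by library (points), with mean and SD, in RV nPAB, RV Sham, LV nPAB and LV Sham. The broadly expressed isoforms (top row) are higher in nPAB without overlap for Cox6a1 and Cox8a, while the muscle isoforms (bottom row) overlap; RV and LV values come from separately normalized tables.

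Because 2 genes are read in the same library, their ratio does not depend on the scaling. The log2 ratio of Cox6a2 to Cox6a1 normalized counts was 0.69 to 1.26 (median 0.88) in RV nPAB, against 1.78, 1.66, 1.48, 1.75 and 1.37 in RV Sham. All 6 nPAB libraries were below all 5 Sham libraries (difference -0.69, exact permutation p = 0.00433, adjusted p = 0.026, Benjamini-Hochberg over 18 ratio tests). In the LV it was 1.02 to 1.68 (median 1.26) in nPAB and 1.86, 1.79, 1.72, 1.70 and 1.5 in Sham, with some overlap (difference -0.40, exact permutation p = 0.00866, adjusted p = 0.039). The LV ratio lost its call without nPAB mice 6 and 7 (difference of nPAB minus Sham -0.30, exact permutation, adjusted p = 0.102), and without any 1 of nPAB mice 5, 6 and 11 or Sham mice 9, 10 and 12.

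The log2 ratio of Cox8b to Cox8a was 1.01 to 1.62 (median 1.30) in RV nPAB and 2.19, 2.03, 1.88, 2.06 and 1.91 in RV Sham (difference -0.69, exact permutation p = 0.00216, adjusted p = 0.0195). The LV ratios were 1.34 to 1.82 (median 1.40) in nPAB and 2.16, 2.13, 1.82, 1.83 and 1.83 in Sham (difference -0.44, exact permutation p = 0.013, adjusted p = 0.0468). Neither ventricle showed overlap, though in the LV the highest nPAB library, at 1.8152, lay just under the lowest Sham library, at 1.819, and the RV p is the smallest that 6 against 5 libraries can give. The log2 ratio of Cox7a1 to Cox7a2 was -0.63 to -0.28 (median -0.42) in RV nPAB and 0.02, 0.04, -0.46, -0.17 and -0.18 in RV Sham, where Sham mouse 11 lay among the nPAB mice (difference -0.30, exact permutation p = 0.0195, adjusted p = 0.0584). It passed without that mouse (exact permutation, adjusted p = 0.0214). In the LV the ratio was -0.58 to -0.34 (median -0.45) in nPAB and 0.0021, 0.03, -0.26, -0.18 and -0.18 in Sham, without overlap (difference -0.34, exact permutation p = 0.00216, adjusted p = 0.0195).

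**Figure D4:**
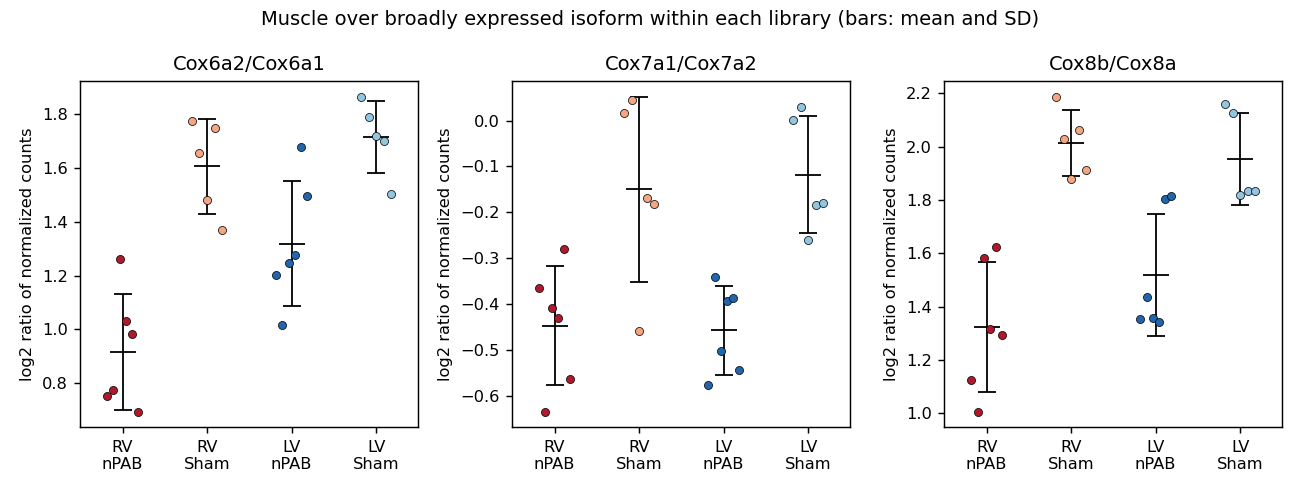
Log2 ratio of muscle to broadly expressed isoform in each library (points) with mean and SD, for 3 complex IV pairs in RV nPAB, RV Sham, LV nPAB and LV Sham. All 3 ratios lie lower in nPAB than in Sham in both ventricles, by 0.30 to 0.69 on the log2 scale, and overlap remains for Cox6a2/Cox6a1 in the LV and Cox7a1/Cox7a2 in the RV.

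On the scale of normalized counts per kb of exon, the muscle isoform remained the larger of each pair in every group. For Cox7a1 and Cox7a2 that order rests on their exon lengths, 535 and 944 bases. In normalized counts Cox7a2 was the larger, with a negative mean log2 ratio of Cox7a1 to Cox7a2 in every group. Cox6a1 made up 34% ± 3.32 of its pair in RV nPAB and 24.2% ± 2.25 in RV Sham, and 28.1% ± 3.22 in LV nPAB and 22.8% ± 1.67 in LV Sham (mean ± SD). Cox8a made up 19% ± 2.59 in RV nPAB and 12.6% ± 0.935 in RV Sham, and 17% ± 2.15 in LV nPAB and 13.1% ± 1.34 in LV Sham. Cox7a2, the most even pair, made up 43.6% ± 2.22 in RV nPAB and 38.6% ± 3.33 in RV Sham, and 43.8% ± 1.65 in LV nPAB and 38.1% ± 2.07 in LV Sham. Cox8b was the highest of all members per kb in Sham hearts, at 40456 ± 2796 normalized counts per kb in RV Sham and 41877 ± 1424 in LV Sham, next to Cox6a2 at 37438 ± 3029 and 41830 ± 1015. The SDs are between libraries, though both genes were read in the same ones, and the order of those neighbours was not tested.

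The other 3 pairs did not pass in any comparison. Cox4i2, the lung-enriched isoform of subunit IV, was near the floor of the measurement, at 13 to 45.8 (median 38.7) normalized counts in RV nPAB and 10.6, 13.2, 52.4, 19.5 and 14.1 in RV Sham. Its partner Cox4i1 made up 99.2% to 99.9% of the pair per kb in every library. The log2 ratio of Cox4i2 to Cox4i1 differed by 0.59 in the RV (exact permutation p = 0.286). Ndufa4l2, a hypoxia-inducible paralogue of the complex IV subunit Ndufa4, had 134 to 208 (median 181) normalized counts in LV nPAB and 128, 159, 164, 117 and 109 in LV Sham. Its log2 ratio to Ndufa4 differed by 0.43 in the LV (exact permutation p = 0.026, adjusted p = 0.0668) and by 0.31 in the RV. Atp5g1 and Atp5g3 encode the same mature ring subunit of complex V with different import sequences, and their log2 ratio differed by 0.03 in the RV and -0.0047 in the LV.

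Elsewhere in complex IV, Cox7a2l and Cox6c were called in the RV. Cox7a2l, related to Cox7a2 by sequence and known for joining complexes III and IV into supercomplexes, had 2020 to 2896 (median 2417) normalized counts in RV nPAB and 1937, 2099, 1706, 2108 and 2011 in RV Sham, with overlap (a log2 fold change of 0.28, SE 0.0973, adjusted p = 0.0437). Cox6c, the subunit VIc gene, was the lower one, at 3381 to 4985 (median 4486) in RV nPAB and 4739, 5109, 5226, 6041 and 4914 in RV Sham (log2 fold change -0.27, SE 0.0967, adjusted p = 0.0485). Both calls were narrow: Cox7a2l lost its call in 13 of 22 alternatives and Cox6c in 10. Cox6c also lost it without nPAB mice 6 and 7 (adjusted p = 0.13). Exons of Cox6c share 250 bases with Vps13b on the other strand, so its reads are uncertain to that extent. The lowest log2 fold changes of the complex belonged to Cox6b2, a testis-enriched isoform, at -0.36 in the RV (SE 0.259) and -0.63 in the LV (SE 0.338), neither called.

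In complex II, 1 of 4 subunits was called in each ventricle. Sdhb (chr4:140961203-140979193) had 6412 to 9610 (median 7616) normalized counts in RV nPAB and 6367, 6088, 5974, 5482 and 5990 in RV Sham, with every nPAB library above every Sham library (log2 fold change 0.37, SE 0.0994, adjusted p = 0.0115). LV libraries held 7280 to 8821 (median 7498) in nPAB and 6567, 6556, 6628, 6218 and 6750 in Sham, also without overlap (log2 fold change 0.23, SE 0.0635, adjusted p = 0.0291). Its partners did not follow. Sdha, the flavoprotein that binds succinate, had 6402 to 9597 (median 8089) in RV nPAB and 9441, 9253, 8718, 8676 and 8871 in RV Sham (log2 fold change -0.16, SE 0.0875, adjusted p = 0.224). The membrane anchors Sdhc and Sdhd had log2 fold changes of -0.05 and 0.03 in the RV and 0.02 and 0.05 in the LV, none called. With a plain variance model the Sdhb adjusted p was 0.0553 in the RV and 0.105 in the LV, and with the mouse as a replicate block the LV value was 0.066. Leaving out any 1 of Sham mice 9 to 12 also ended the LV call.

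Of 36 complex I subunits, 3 were called higher in the RV and 2 in the LV, and none lower. That is 8.33% against 22.0% of all genes in the RV, and 5.56% against 9.31% in the LV. Ndufa11, a membrane-arm subunit (chr17:56717767-56722141), had 7250 to 10980 (median 8329) normalized counts in RV nPAB and 7037, 6327, 7255, 7011 and 6892 in RV Sham, just overlapping (log2 fold change 0.33, SE 0.0978, adjusted p = 0.022). Ndufa11 in the LV had 7474 to 9951 (median 8388) in nPAB and 6426, 5855, 7243, 6753 and 7067 in Sham, without overlap (log2 fold change 0.35, SE 0.0768, adjusted p = 0.00741). Its exons share 70 bases with Vmac on the other strand, so its reads are uncertain to that extent. Ndufb3 (log2 fold change 0.25, SE 0.0866, adjusted p = 0.0456) and Ndufc1 (log2 fold change 0.19, SE 0.0642, adjusted p = 0.036), both accessory subunits of the membrane arm, were the other calls in the RV. Ndufc1 did not overlap between the groups, at 5652 to 6348 (median 6109) in RV nPAB and 5192, 5192, 5261, 5593 and 5078 in RV Sham. Ndufs8, an iron-sulfur subunit on the electron path towards ubiquinone, was the other call in the LV, at 1938 to 2454 (median 2164) in LV nPAB and 1814, 1630, 1663, 1770 and 1997 in LV Sham (log2 fold change 0.29, SE 0.0764, adjusted p = 0.0235). None of these complex I calls remained under a plain variance model. Over 22 alternatives Ndufb3 lost its call in 12, Ndufc1 in 10, Ndufs8 in 4 and Ndufa11 in 3 for the RV and 1 for the LV.

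The lowest log2 fold changes of complex I were small, at -0.13 for Ndufb11, a membrane-arm subunit, in the RV and -0.04 for Ndufs1, the largest iron-sulfur subunit, in the LV. The 8 Ndufaf genes, which encode complex I assembly factors and not subunits, were called in neither ventricle. Ndufaf6 had the highest of their log2 fold changes, 0.47 in the RV (adjusted p = 0.0618) and 0.45 in the LV (adjusted p = 0.0881), at 140 to 212 (median 170) normalized counts in RV nPAB and 91.3, 112, 143, 171 and 109 in RV Sham. It passed in the RV in 4 of 22 alternatives, one of them the fit without nPAB mouse 6 (adjusted p = 0.0484).

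All 8 complex III genes had log2 fold changes above 0 in both ventricles, and 1 was called, in the RV (12.5%, against 22.0% of all genes). Without nPAB mouse 10, the RV log2 fold changes of Uqcr11 and Uqcrb were -0.0121 and -0.0134. Uqcrc2, a core subunit on the matrix side (chr7:120635176-120659524), had 4780 to 6948 (median 5862) normalized counts in RV nPAB and 5092, 4897, 4491, 5173 and 4595 in RV Sham (log2 fold change 0.28, SE 0.091, adjusted p = 0.0327). The lowest nPAB library, mouse 6, fell among the Sham libraries. In the LV it had 5413 to 6911 (median 6011) in nPAB and 5628, 5214, 5326, 5052 and 4850 in Sham and did not pass (log2 fold change 0.21, SE 0.0711, adjusted p = 0.0694). The next in the RV was Uqcrq, a small subunit beside cytochrome b, which did not pass (log2 fold change 0.23, SE 0.0832, adjusted p = 0.0588). The RV call of Uqcrc2 was lost in 8 of 22 alternatives. Uqcrc2 shares 504 bases of exon with Pdzd9 on the other strand, so its reads are uncertain to that extent.

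Complex V had 1 gene higher and 1 lower of 17 in the RV (11.8%, against 22.0% of all genes). It had 1 higher in the LV (5.88% against 9.31%). Atp5j2, subunit f of the membrane part, had 7266 to 9341 (median 8303) normalized counts in RV nPAB and 7386, 7132, 6824, 7184 and 6990 in RV Sham (log2 fold change 0.21, SE 0.0712, adjusted p = 0.0387). Atp5j, coupling factor 6 of the peripheral stalk (chr16:84827866-84835625), was lower: 8330 to 10359 (median 10152) in RV nPAB, against 11510, 11118, 10802, 12631 and 10985 in RV Sham, without overlap (log2 fold change -0.22, SE 0.0738, adjusted p = 0.0361). It was the single member whose RV nPAB libraries all lay below Sham, against 6.06% of all genes. In the LV Atp5j had 9596 to 12746 (median 11439) in nPAB and 10957, 11328, 11206, 10996 and 11767 in Sham, fully overlapping (log2 fold change -0.0034, SE 0.0685, adjusted p = 0.984). Atp5mpl, a small proteolipid of the membrane part, was the LV call, at 10772 to 13089 (median 11402) in LV nPAB and 9603, 9006, 10044, 9388 and 10820 in LV Sham (log2 fold change 0.25, SE 0.0673, adjusted p = 0.025). The catalytic head subunits Atp5a1 and Atp5b had log2 fold changes of 0.06 each in the RV and 0.04 and 0.06 in the LV, none called. Atp5j2 lost its RV call in 11 of 22 alternatives and Atp5mpl its LV call in 4.

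Atp5j shares 397 bases of exon with Gabpa, which encodes a subunit of the ETS factor GABP (also called NRF2) and runs on the other strand. Gabpa was itself lower in the RV (log2 fold change -0.33, adjusted p = 0.00398) and in the LV (log2 fold change -0.24, adjusted p = 0.0453). Whether reads of one entered the count of the other was not tested. The RV fall of Atp5j lost its call in 8 of 22 alternatives, among them the fit without nPAB mice 6 and 7 (adjusted p = 0.0525).

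**Figure D5:**
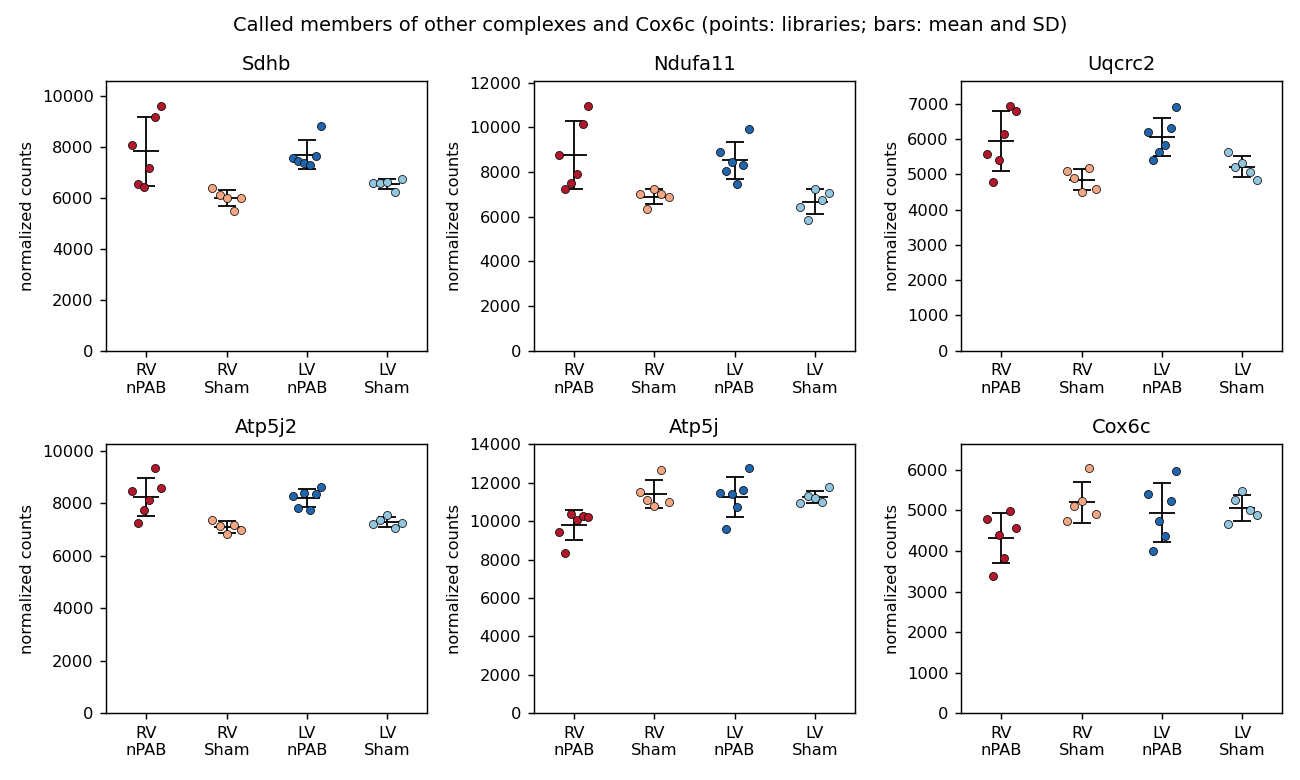
Normalized counts of 6 called members by library (points), with mean and SD, in RV nPAB, RV Sham, LV nPAB and LV Sham. Sdhb stands higher in nPAB without overlap in both ventricles, Ndufa11 in the LV, and Atp5j lower in RV nPAB alone of the nPAB groups.

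Whether banding moved a gene differently in the RV and the LV was tested on the difference of log2 values within each mouse. No member was called by limma, where 1.11% of 13364 genes were (0.584% higher and 0.524% lower), and at an unadjusted p under 0.05 there were 2 members higher and 5 lower, 7 of 91 against 12.5% of all genes. edgeR and DESeq2 called none either. The RV minus LV difference in log2 change, nPAB minus Sham, was 0.32 for Cox6a1 (adjusted p = 0.142), and 0.24 for Cox8a (adjusted p = 0.202). For Atp5j it was -0.22 (adjusted p = 0.105) and for Cox6c -0.23 (adjusted p = 0.153). Without nPAB mice 6 and 7, whose RV and LV libraries differed in sex, 3 of 91 members passed, 3.30% against 3.75% of all genes in that fit: Cox6a1 at 0.47 (adjusted p = 3.36e-05), Cox8a at 0.32 (adjusted p = 0.0122) and Sdhb at 0.25 (adjusted p = 0.0379). With the LV libraries of mice 6 and 7 exchanged instead, 0 of 91 members passed, against 0.471% of all genes. Leaving out mouse 6 alone gave 0 members, against 1.47% of all genes. Leaving out mouse 7 alone gave 2 (2.20% against 2.94%). The log2 ratio of Cox6a2 to Cox6a1, RV minus LV within a mouse, averaged -0.40 ± 0.308 in nPAB and -0.11 ± 0.103 in Sham mice (SD). It passed without nPAB mice 6 and 7 (difference -0.44, exact permutation, adjusted p = 0.0286) but not with them (difference -0.29, exact permutation p = 0.0714, adjusted p = 0.161).

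In Sham hearts the members lay slightly lower in the RV than in the LV, given here as a description because the tables were normalized separately. Each mouse's RV minus LV log2 differences were centred on their median over all genes tested in both ventricles. The members' median difference was then -0.06. In all 5 mice 20 of 91 members were lower in the RV and 0 higher, against 5.53% and 5.64% of all genes. Sdhb was lower in the RV by 0.16 ± 0.0589 and Cox6a2 by 0.20 ± 0.106 (log2, SD, n = 5), in 5 of 5 mice each.

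Genes that serve the chain without being subunits were described from lists, without a test of the list. Of 44 tested assembly factors outside the name rule, 7 were higher and 2 lower in the RV, and 3 higher and 1 lower in the LV. That is 20.5% and 9.09%, near the shares of all genes called (22.0% and 9.31%), which also stand beside the shares of the lists that follow. Higd1a, a small inner-membrane protein that binds complex IV, rose in the RV (log2 fold change 0.69, adjusted p = 0.000916) and the LV (log2 fold change 0.54, adjusted p = 0.00666). Cox19, a copper-handling assembly factor for complex IV, rose in the RV (log2 fold change 0.86, adjusted p = 0.000879). Tmem126b, an assembly factor of complex I, fell in the RV (log2 fold change -0.49, adjusted p = 0.00171) and the LV (log2 fold change -0.62, adjusted p = 0.00056).

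Among 19 electron carriers and entry enzymes, 5 were higher and 1 lower in the RV (31.6%) and 1 was higher in the LV (5.26%). Coq10b, a coenzyme Q binding protein, rose in both ventricles (RV log2 fold change 0.91, adjusted p = 8.63e-06; LV log2 fold change 0.71, adjusted p = 0.000731). Coq4, needed to make coenzyme Q, rose in the RV (log2 fold change 0.59, adjusted p = 0.00763), as did Gpd2, the mitochondrial glycerol phosphate dehydrogenase (log2 fold change 0.54, adjusted p = 0.00791). Of 8 genes of ATP export and phosphate entry, Slc25a5, Vdac2 and Ckmt2 rose in each ventricle (37.5%). Slc25a5, an ADP/ATP carrier, had log2 fold change 0.52, adjusted p = 0.00158 in the RV and log2 fold change 0.33, adjusted p = 0.00665 in the LV. Ckmt2, the muscle mitochondrial creatine kinase, had log2 fold change 0.64, adjusted p = 0.00237 in the RV and log2 fold change 0.42, adjusted p = 0.0479 in the LV. Vdac2, an outer-membrane channel, had log2 fold change 0.36, adjusted p = 0.00714 in the RV and log2 fold change 0.27, adjusted p = 0.0282 in the LV.

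The TCA cycle list had 2 of 14 genes higher in the RV (14.3%), Ogdh (log2 fold change 0.42, adjusted p = 0.00213) and Dlst (log2 fold change 0.22, adjusted p = 0.0439), both parts of the 2-oxoglutarate dehydrogenase complex, and none called in the LV. Of 18 genes for upkeep and transcription of mitochondrial DNA, 1 (5.56%) was lower in the RV, the polymerase subunit gene Polg2 (log2 fold change -1.08, adjusted p = 0.00886), and none was called in the LV. The median log2 fold change of that list was -0.21 in the RV and -0.23 in the LV. Among 13 regulators of respiratory genes, 23.1% passed in the RV, 1 higher and 2 lower. LV calls were 1 higher and 1 lower (15.4%). Hif1a, the oxygen-sensing factor, rose in the RV (log2 fold change 0.84, adjusted p = 0.000851) and the LV (log2 fold change 0.44, adjusted p = 0.00626). Gabpa was lower in both, as given above, and Nrip1, a corepressor of nuclear receptors, was lower in the RV (log2 fold change -0.33, adjusted p = 0.0271). Ppargc1a, the coactivator PGC-1α, did not pass in the RV (log2 fold change -0.32, adjusted p = 0.0525) or the LV (log2 fold change -0.25, adjusted p = 0.109).

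Markers of other cell types were measured beside these results. Of 5 atrial myocyte markers, 4 of them tested in the LV, 1 was called higher in each ventricle, Nppa, which stressed ventricular myocytes also express. The uncalled ones had overlapping ranges but higher medians in RV nPAB than in RV Sham. Medians were 2021 against 1205 for Myl7, 1205 against 423 for Myl4, 149 against 63.7 for Sln and 24.8 against 2.35 for Bmp10. In the LV, Myl7, Sln and Bmp10 had lower medians in nPAB than in Sham and Myl4 a higher one. Summed normalized counts of all 5 atrial markers, Nppa included, were 3147 to 16232 in RV nPAB and 184 to 2526 in RV Sham. In the LV they were 1126 to 5875 in nPAB and 615 to 1588 in Sham. None of the 5 epicardial markers was called, with sums of 317 to 596 in RV nPAB and 166 to 338 in RV Sham, and 171 to 414 in LV nPAB and 166 to 294 in LV Sham. Fibroblast sums overlapped, at 41150 to 62505 in RV nPAB and 49017 to 66391 in RV Sham, and 34765 to 59628 in LV nPAB and 39311 to 45464 in LV Sham. Of the 7 fibroblast markers, Pdgfra fell in the RV (log2 fold change -0.45, adjusted p = 0.0343) and was the 1 marker called for the RV minus LV difference (log2 fold change -0.58, adjusted p = 0.0261). Endothelial sums overlapped too, at 9430 to 11390 in RV nPAB and 10426 to 11960 in RV Sham, and 9330 to 11541 in LV nPAB and 10681 to 11988 in LV Sham. Of the 7 endothelial markers, Tek fell in the RV (log2 fold change -0.68, adjusted p = 0.0115) and the LV (log2 fold change -0.47, adjusted p = 0.0136). In the RV, 1 of 6 smooth muscle and pericyte markers rose, Cspg4 (log2 fold change 0.74, adjusted p = 0.000515), as did 1 of 4 tested erythroid markers, Hbb-bt (log2 fold change 0.64, adjusted p = 0.0221), and 1 of 3 tested brown fat markers, Dio2 (log2 fold change 1.54, adjusted p = 6.73e-05). No macrophage, leukocyte or skeletal muscle marker was called, but only 1 of 6 skeletal muscle markers was tested in the RV and 2 in the LV. No atrial or epicardial marker was at 0 throughout a group. Their part in the isoform results was not tested.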

How the data were processed

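Per the labels' protocols, bulk RNA was purified on Qiagen RNeasy Plus Mini columns, and Revelo RNA-Seq High Sensitivity libraries were sequenced. Tools named by the submitters' processing notes are DESeq2, featureCounts and cutadapt, with build mm10. Not given in the sources used here are the aligner, versions, the strand setting and how reads with several matches were treated. For each ventricle the authors deposited a table of signal values: per the labels, counts per gene that DESeq2 normalized by its size factors. Counts whose reads match several places can be split among close copies of a gene, and many respiratory chain genes have pseudogenes. Symbols, coordinates and exon lengths came from GENCODE M21 for mm10. The name rule matched 13 genes that are not protein coding, which were left out.

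Deposited values plus 1 were taken to log2 and tested by moderated linear models (R 4.3.3; limma 3.58.1, with a trended, robust eBayes). Genes needed a mean of 10 or more. Tests were two-sided, and Benjamini-Hochberg adjusted p-values over all tested genes were held to 0.05. A log2 fold change on this scale understates low genes. The RV and LV were tested separately, and the RV minus LV difference within each mouse. Ratios of isoform pairs were tested by two-sided exact permutation over libraries. Levels of different genes were compared per kb of merged exons. The scripts were tested on simulated data. Whole reads, recovered within 0.001 for 100% of values, gave the depth of 7.11 to 11.3 M reads per library and fed edgeR 4.0.16 and DESeq2 1.42.0 as alternatives. Figures used matplotlib 3.10.9. Other alternatives changed the pseudocount, the filter, the scaling, the variance model and the replicate block, or left out mice.

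Same-numbered RV and LV libraries come from 1 animal by the labels. Correlations of their deviations from the group means were 0.0548 to 0.383, and the sexes read from Xist and Y-linked genes matched in 9 of 11 mice. Correlations were highest at the same number in those 9 mice, while RV nPAB 6 was most like LV nPAB 7 and RV nPAB 7 most like LV nPAB 8. Between libraries of 1 group the lowest chi-square per degree of freedom was 7.37, so none was a duplicate of another. Litters are not stated.

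The members, lists and tests were chosen with earlier results of these data known. Genes named are Sdhb, Cox6a2, complex II and the isoform pairs, then, per complex and comparison, up to 4 called members with the smallest adjusted p and the highest and lowest log2 fold change, and up to 3 called genes per related list. Atp5a1, Atp5b, Ppargc1a and the called cell type markers were named after their values were seen.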

Additional observations from a re-analysis of the deposited data

Results flagged for a closer look

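Dixon's test at 95% was run on 180 sets of values within a group, from the named members and the isoform pair ratios. Of these, 6 (3.33%), all of member values, held a library far from the others, where chance alone gives about 1 in 20. The RV library of nPAB mouse 6 was the low one in 3 of them: Cox6a2 at 23908 normalized counts with the next library at 27680, Ndufb11 at 6438 with the next at 7942, and Ndufa5, a complex I subunit of the matrix arm, at 3159 with the next at 3812. The LV library of the same number was high for the assembly factor gene Ndufaf2, at 231.65 normalized counts with the next at 162.09. The LV library of nPAB mouse 11 was high for Sdhb, at 8821 with the next at 7638; without that mouse the LV log2 fold change of Sdhb was 0.19 and the call remained. The RV library of Sham mouse 11 was high for Cox4i2, at 52.4 with the next at 19.5.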

How the results depend on the processing

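Counts of called members moved by more than 1.5 times in these settings. Scaling to library totals shifted the median of all genes by -0.09 in the RV and -0.07 in the LV, and the RV then gave 3 members higher and 7 lower beside 1088 and 2154 of all genes, against 1519 and 1480 on the deposited scale. The RV minus LV difference gave 1 lower, Atp5j, beside 1.18% of all genes called. A plain variance model gave 2 higher and 0 lower in the RV and 2 higher in the LV. edgeR gave 1 lower in the RV. Without nPAB mice 6 and 7 there were 22 higher and 0 lower in the RV and 3 higher for the RV minus LV difference, where 20.4% and 3.75% of all genes were called. With the mouse as a replicate block the RV gave 14 higher, and Sdhb lost its LV call. Leaving out 1 mouse at a time gave 3 to 19 higher and 0 to 2 lower in the RV, 3 to 11 higher in the LV and 0 to 2 higher for the difference. Over all genes, the RV minus LV difference gave 148 calls, with 1 under a plain variance model, 5 with no replicate block, 63 with the LV libraries of nPAB mice 6 and 7 exchanged, 249 by DESeq2, 501 without mice 6 and 7, and 80 to 393 with 1 mouse left out. LV calls over all genes were 1260, with 739 under a plain variance model and 668 without mice 6 and 7.

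For the log2 ratio of Cox6a2 to Cox6a1, nPAB minus Sham without mice 6 and 7 was -0.30 in the LV and no longer passed, and the RV minus LV value was -0.44 and then passed. With 1 mouse left out, the same ratio ran from -0.47 to -0.34 in the LV and from -0.38 to -0.21 for RV minus LV. Over the same settings Cox8b to Cox8a for RV minus LV ran from -0.34 to -0.19, Cox7a1 to Cox7a2 in the RV from -0.37 to -0.25, and Ndufa4l2 to Ndufa4 in the LV from 0.33 to 0.52, each passing in at least 1. No called result changed direction, and the causes of the shifts were not tested. Depth limits Cox4i2 and Cox7b2, which had few reads.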
